A study of Mus musculus with 6 samples.

Results

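Braf, Araf, Map2k1, Map2k2, Mapk3, Nras, Hras and Dusp6 encode proteins of the RAS and MAP kinase cascade. They were chosen by name, and all 8 were found by symbol among the 53801 gene identifiers of the count tables. Their RNA was measured by RNA-seq in pieces of 6 mouse tumours. B16-F10, a line of mouse melanoma cells, was injected under the skin of adult male C57BL/6 wild type mice, which received no anaesthesia and in which the tumours grew. In the SEVO group (n = 3) the cells had been primed with the volatile anaesthetic sevoflurane in a chamber before injection, and in the CTRL group (n = 3) they had not. Both groups rest on this single cell line. A fresh frozen stock was thawed for each experimental group, and whether CTRL and SEVO were separate groups in this sense is not stated. If they were, the stock and the priming cannot be told apart. The labels name the tissue melanoma and the cell type monocytes, while the study describes RNA of whole tumour pieces.

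The cascade carries growth signals from the cell surface to the nucleus. Nras and Hras encode small GTPases of the inner cell membrane that are switched on when growth factor receptors are active. They recruit the RAF kinases, here Braf and Araf, which phosphorylate the MEK kinases encoded by Map2k1 and Map2k2. The MEK kinases in turn phosphorylate the ERK kinases, one of which is encoded by Mapk3. Dusp6 encodes a cytoplasmic phosphatase that takes the phosphate off ERK again, and its transcription is known to rise with ERK activity. In melanocytes the cascade acts below the KIT receptor, and mutations that lock BRAF or NRAS in the active state are frequent in human melanoma.

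Counts were low. The library kit and the strand on which reads were counted are not given in the sources used here, so the counts cannot be taken as the sense RNA of these genes with certainty, and reads of the opposite strand or background reads may be among them or make them up. The reads counted on genes numbered 723431 to 1348676 per tumour, which was 2.06% to 4.61% of the uniquely aligned reads. The predicted genes Gm10800 and Gm10801 together took from 1.31% of the counted reads in CTRL 2 to 49% in CTRL 1. The 10 melanocyte markers summed to between 1460 and 1530 CPM in CTRL, against 673 in SEVO 1, 824 in SEVO 2 and 1930 in SEVO 3. CPM is the read count scaled to a common library size by TMM factors. Of the 12 monocyte and macrophage markers only 2 had enough reads to be tested, and their sum of 205 to 289 CPM in CTRL and 237 to 329 CPM in SEVO was mostly Csf1r. The other 11 of these markers had 0 to 23 reads in a tumour, with at most 9 for Adgre1 and 4 for Itgam, which encode the macrophage surface proteins F4/80 and CD11b. The summed levels of the T and NK cell, neutrophil, endothelial, fibroblast, keratinocyte and erythroid lists overlapped between the groups.

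The 8 genes together held 632 reads over the 6 tumours, 374 in CTRL and 258 in SEVO. Braf alone took 46.8% of them and had the most reads of the 8 in 6 of 6 tumours. The median was 8.5 reads per gene and tumour, for which the counting error alone is 34.3%, and 26 of the 48 values were 10 reads or fewer. The summed level of the 8 genes was 198 CPM in CTRL 1, 112 in CTRL 2, 140 in CTRL 3, 70.1 in SEVO 1, 75.1 in SEVO 2 and 139 in SEVO 3. SEVO 1 and SEVO 2 lay below every CTRL tumour, while SEVO 3 lay among them. The melanocyte markers were likewise low in SEVO 1 and SEVO 2 and high in SEVO 3, and their part in the level of the cascade genes was not tested. In bulk tumour RNA, fewer cells of a type and less RNA per cell cannot be told apart.

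No gene of the cascade differed between the groups at an adjusted p under 0.05. Of all 7561 genes that passed the filter on low counts, 0 (0%) did so in edgeR, with a lowest adjusted p of 0.741. At an unadjusted p under 0.05, edgeR called 330 of the 7561 (4.36%). DESeq2 called 0 at the adjusted threshold and 265 of 42422 genes (0.625%) at the unadjusted one. Over all 42423 genes with at least 1 read, which also served for the cascade genes under the filter, edgeR called 1 (0.00236%) at the adjusted threshold and 4.91% at the unadjusted one. In that fit, 1344 of 11916 protein-coding genes with as many reads as the cascade genes (11.3%) had an unadjusted p under 0.05. Among the cascade genes, Nras was the only one with an unadjusted p under 0.05 in edgeR, and DESeq2 gave 0. Leaving out CTRL 1, CTRL 3, SEVO 1 or SEVO 2 left 0 cascade genes at that threshold, and leaving out SEVO 3 gave 2, Araf and Nras. The share of all genes at that threshold was not computed with a tumour left out, so these counts have no background beside them. At an unadjusted p under 0.02 with a fold of at least 1.5, the thresholds of the study, edgeR called 79 of 7561 genes (1.04%) and 0 of the 8. Over all genes with a read the share was 1.69%, or 0.627% with the scaling recomputed on them. Without SEVO 3, edgeR called 479 of 8383 filtered genes at these thresholds and 0 of the 8.

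Nras and Dusp6 were the 2 genes whose levels did not overlap between the groups, with all 3 SEVO tumours below all 3 CTRL tumours. The same ordering was found for 332 of the 7561 filtered genes (4.39%), for 4.54% of all genes with a read and for 892 of 11916 protein-coding genes with as many reads as the cascade genes (7.49%). With 3 tumours in each group, 0.1 is the smallest two-sided p that an exact permutation test can reach. CTRL 1 had the highest level for 6 of the 8 genes, and SEVO 2 the lowest for 5. Only Braf, Map2k1 and Nras passed the filter on low counts. The other 5 were tested among the 42423 genes with at least 1 read, and their p-values are adjusted over those.

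**Figure D1:**
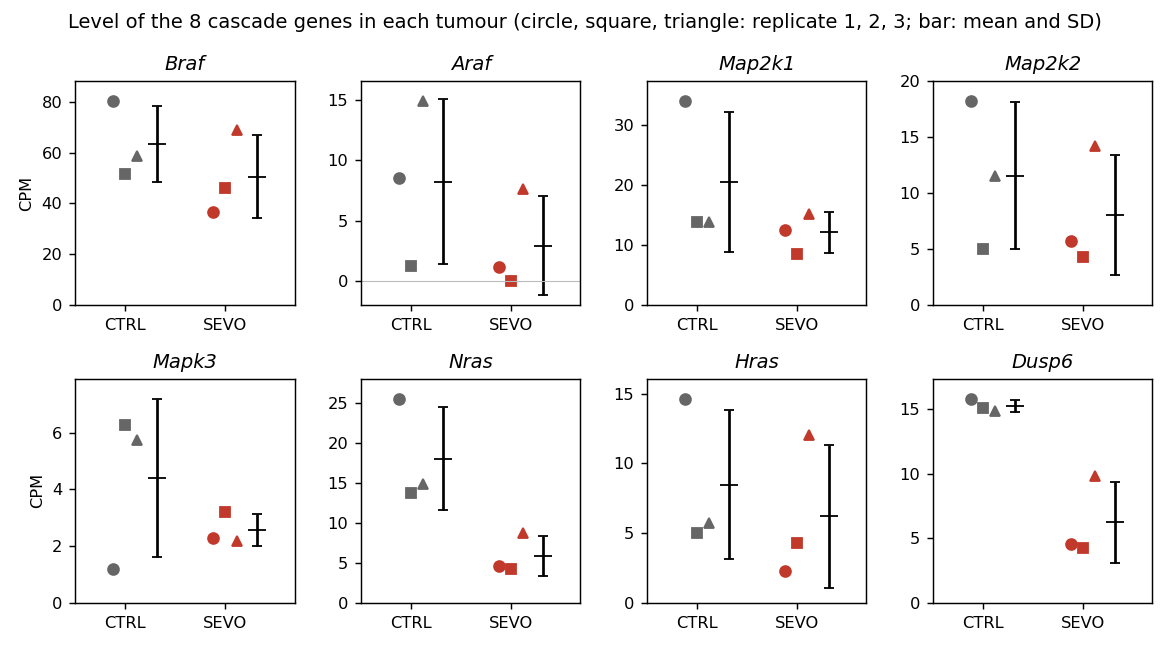
Level of each cascade gene in CPM (y axis, a separate scale from 0 per gene) in the 3 CTRL and 3 SEVO tumours. Points are tumours, with the same shape for the same replicate number, and bars are the mean with its SD (n = 3). Nras and Dusp6 are the 2 genes in which every SEVO point lies below every CTRL point, and the third SEVO tumour is the highest of its group for all genes but Mapk3.

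Nras (ENSMUSG00000027852.14, chr3:103058285-103067914, plus strand, GRCm38) had 21, 11 and 13 reads in CTRL and 4, 4 and 8 in SEVO. In CPM these were 25.5, 13.8 and 14.9 in CTRL and 4.6, 4.29 and 8.72 in SEVO. Every SEVO tumour lay below every CTRL tumour, in reads as well as in CPM. CTRL averaged 18.1 ± 6.45 CPM and SEVO 5.87 ± 2.48 CPM (SD, n = 3 each). The log2 fold change in edgeR was -1.60 (SE 0.64, 95% interval -2.97 to -0.22), with an unadjusted p of 0.0261 and an adjusted p of 0.741. DESeq2 gave -1.26 with an unadjusted p of 0.112. The exact two-sided permutation p of the difference in mean CPM was 0.1.

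Since Nras and Dusp6 were the genes without overlap, the 250 bases upstream of their annotated starts were read from RefSeq promoter sequences on GRCm38.p6, where 7 of the 8 genes had an entry. Capitals mark matches to 5 motifs searched on both strands, the ETS site CCGGAAGT, the AP-1 site TGACTCA, the E-box CACGTG, the GC box GGGCGG and the CRE TGACGTCA. The Nras window lies at chr3:103058035-103058284 and the Dusp6 window at chr10:99262981-99263230, both on the plus strand.
Nras: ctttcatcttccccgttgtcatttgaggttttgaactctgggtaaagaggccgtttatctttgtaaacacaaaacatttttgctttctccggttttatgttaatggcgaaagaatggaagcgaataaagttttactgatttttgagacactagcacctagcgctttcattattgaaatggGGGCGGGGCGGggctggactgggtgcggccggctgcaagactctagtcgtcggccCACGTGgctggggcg
Dusp6: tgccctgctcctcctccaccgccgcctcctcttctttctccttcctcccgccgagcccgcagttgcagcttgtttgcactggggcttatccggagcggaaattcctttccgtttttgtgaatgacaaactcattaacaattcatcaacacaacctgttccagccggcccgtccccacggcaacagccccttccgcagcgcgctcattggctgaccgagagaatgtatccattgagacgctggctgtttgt
The Nras window held 2 GC box matches, which overlap each other, and 1 E-box match, while the Dusp6 window held no match to any of the 5. A GC box was present in 5 of the 7 cascade genes and in 32.7% of 32851 promoter windows of the same length. The E-box was present in Nras alone of the 7 and in 6.02% of all windows, and the CRE in Braf alone and in 1.55%. The ETS and AP-1 sites, motifs of factors that act below ERK, were present in 0 of the 7 genes and in 2.88% and 4.46% of all windows. A match is a run of letters and not a measured binding site.

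Hras (ENSMUSG00000025499.18, chr7:141189105-141194005, minus strand) had 14.6, 5.02 and 5.74 CPM in CTRL and 2.3, 4.29 and 12 CPM in SEVO, from 2 to 12 reads per tumour. The groups overlapped, since SEVO 3 lay above CTRL 2 and CTRL 3. CTRL averaged 8.44 ± 5.32 CPM and SEVO 6.2 ± 5.12 CPM (SD, n = 3 each). In edgeR its log2 fold change was -0.43 (SE 0.96, adjusted p = 0.863), and it was 0.20 without CTRL 1, 0.04 without SEVO 1, -1.26 without SEVO 3 and 0.12 with the scaling computed on all genes with a read.

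Hras and Nras are close relatives, with 77.3% of the aligned coding bases in common. No word of 50 bases in an Hras transcript was found in a transcript of another gene. Of the 50-base words of Nras, 0.733% were found in another gene.

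Braf (ENSMUSG00000002413.15, chr6:39603237-39725463, minus strand) had the most reads of the cascade, 66, 41 and 51 in CTRL and 32, 43 and 63 in SEVO. Its levels were 80.1, 51.4 and 58.5 CPM in CTRL and 36.8, 46.1 and 68.7 CPM in SEVO. SEVO 3 lay above CTRL 2 and CTRL 3, so the groups overlapped. Without SEVO 3 they did not, which is easier to reach with fewer tumours, and the share of all genes was not computed. CTRL averaged 63.4 ± 14.9 CPM and SEVO 50.5 ± 16.4 CPM (SD, n = 3 each). On the log2 scale the fold change was -0.32 (SE 0.35, 95% interval -1.09 to 0.44, adjusted p = 0.785 in edgeR), but 0.18 with the scaling computed on all genes with a read and 0.02 in DESeq2. It ranged from -0.56 without SEVO 3 to -0.07 without SEVO 1 when a tumour was left out. Braf had the smallest SE of the 8 genes in edgeR, and its interval holds for this scaling alone.

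Araf (ENSMUSG00000001127.12, chrX:20797814-20860519, plus strand), the second RAF kinase gene, was near the limit of detection. It had 7, 1 and 13 reads in CTRL and 1, 0 and 7 in SEVO, which were 8.5, 1.25 and 14.9 CPM in CTRL and 1.15, 0 and 7.63 CPM in SEVO. It was the only cascade gene with a tumour at 0. CTRL averaged 8.22 ± 6.84 CPM and SEVO 2.93 ± 4.12 CPM (SD, n = 3 each). For SEVO over CTRL, the log2 fold change was -1.45 (SE 1.12, 95% interval -3.65 to 0.75, adjusted p = 0.691 in edgeR), and the groups overlapped. Without CTRL 2, its lowest CTRL tumour, they did not, but no share of all genes was computed for that case. The fold rested on single tumours, at -3.53 without SEVO 3 (unadjusted p = 0.0397 in edgeR) and -0.64 without CTRL 3.

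The MEK kinase genes overlapped between the groups as well. Map2k1 (ENSMUSG00000004936.8, chr9:64185770-64253631, minus strand) had 28, 11 and 12 reads in CTRL and 11, 8 and 14 in SEVO, or 34, 13.8 and 13.8 CPM in CTRL and 12.6, 8.58 and 15.3 CPM in SEVO. The high value was CTRL 1 alone, and the other 5 tumours lay between 8.58 and 15.3 CPM. CTRL averaged 20.5 ± 11.7 CPM and SEVO 12.2 ± 3.37 CPM (SD, n = 3 each). The log2 fold change was -0.75 (SE 0.58, 95% interval -2 to 0.51, adjusted p = 0.748 in edgeR). It was -0.18 without CTRL 1, and -0.15 with the scaling computed on all genes with a read.

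Map2k2 (ENSMUSG00000035027.18, chr10:81105915-81133975, plus strand) had 18.2, 5.02 and 11.5 CPM in CTRL and 5.75, 4.29 and 14.2 CPM in SEVO, from 4 to 15 reads per tumour. SEVO 3 lay above CTRL 2 and CTRL 3, and CTRL 2 lay below SEVO 1. CTRL averaged 11.6 ± 6.6 CPM and SEVO 8.07 ± 5.34 CPM (SD, n = 3 each). In edgeR its log2 fold change was -0.51 (SE 0.84, adjusted p = 0.809), but 0.05 with the scaling computed on all genes with a read. It was -0.04 without CTRL 1 and -1.13 without SEVO 3.

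Map2k1 and Map2k2 share 79% of their aligned coding bases and the longest run of the relatives compared, 56 bases. The stretch around it spans an intron in both genes, chr9:64205157-64212655 for Map2k1 (minus strand) and chr10:81115101-81118183 for Map2k2 (plus strand), and is given as spliced, with the differing bases in capitals.
Map2k1: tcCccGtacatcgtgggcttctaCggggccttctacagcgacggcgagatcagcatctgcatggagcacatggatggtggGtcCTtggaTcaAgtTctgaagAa
Map2k2: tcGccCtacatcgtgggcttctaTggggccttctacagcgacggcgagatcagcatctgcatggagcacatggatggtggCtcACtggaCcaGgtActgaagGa
They differ at 10 of 104 bases. A read inside the shared run would fit both genes, and 7 words of 50 bases are shared, 0.207% of those of Map2k1 and 0.122% of those of Map2k2. For Braf and Araf the longest shared run was 17 bases.

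Mapk3 (ENSMUSG00000063065.13, chr7:126759601-126765819, plus strand) had the fewest reads of the cascade, 1, 5 and 5 in CTRL and 2, 3 and 2 in SEVO. Its levels were 1.21, 6.27 and 5.74 CPM in CTRL and 2.3, 3.22 and 2.18 CPM in SEVO. CTRL 1, the highest tumour for most cascade genes, was the lowest for Mapk3, and without it the groups did not overlap. Fewer tumours make this easier to reach, and the share of all genes was not computed. CTRL averaged 4.41 ± 2.78 CPM and SEVO 2.57 ± 0.568 CPM (SD, n = 3 each). On the log2 scale the fold change was -0.75 with an SE of 1.35 (adjusted p = 0.832 in edgeR), so a difference of this size was not detectable at this depth. It was -1.18 without CTRL 1 and -0.31 without CTRL 2.

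Dusp6 (ENSMUSG00000019960.8, chr10:99263231-99267489, plus strand), the feedback phosphatase, had 13, 12 and 13 reads in CTRL and 4, 4 and 9 in SEVO. In CPM these were 15.8, 15.1 and 14.9 in CTRL and 4.6, 4.29 and 9.82 in SEVO. The CTRL tumours were closer to each other than for any other cascade gene, and all SEVO tumours lay below them. With 12 or 13 reads each in CTRL, counting error is larger than the spread between these tumours, so their closeness does not show a precise level. CTRL averaged 15.3 ± 0.466 CPM and SEVO 6.24 ± 3.1 CPM (SD, n = 3 each). For SEVO over CTRL, the log2 fold change was -1.27 (SE 0.82, 95% interval -2.88 to 0.34), with an unadjusted p of 0.123 and an adjusted p of 0.691 in edgeR. The exact two-sided permutation p was 0.1. With the scaling computed on all genes with a read, the groups of Dusp6 overlapped and those of Nras did not.

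The median log2 fold change of the 8 genes was -0.75, and the edgeR value was negative for 8 of 8. The median of the 7561 filtered genes was -0.02, with 51.1% of them negative, against 78.4% of all genes with a read. Protein-coding genes with as many reads as the cascade genes had a median of -0.90, and 88% of these 11916 genes were negative. The shift of the cascade genes was thus close to that of genes counted at a like depth. The direction depended on the genes that set the scale. With the scaling computed on all 42423 genes with a read, 5 of the 8 cascade genes were negative and their median was -0.26, beside -0.30 for the protein-coding genes of like depth (66% negative) and -0.38 for all 42423. DESeq2 gave a median of -0.45 for the 8 and -0.55 for all genes.

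The count of cascade genes without overlap rested most on SEVO 3. Without it, 6 of the 8 did not overlap, Braf, Araf, Map2k1, Nras, Hras and Dusp6, and the median log2 fold change was -1.20. Without CTRL 1 the count was 3, with Mapk3 added, and without CTRL 2 it was 3, with Araf added. Nras and Dusp6 were in every one of these counts. At an unchanged scaling this was fixed in advance, since groups without overlap stay so when a tumour is left out. The share of all genes without overlap was not computed with a tumour left out, and lack of overlap is easier to reach with fewer tumours. Without SEVO 3, 454 tested genes were lower and 25 higher in SEVO at the thresholds of the study, beside 71 and 8 with all tumours. Over all alternatives the log2 fold change ranged from -1.94 to -1.06 for Nras and from -1.70 to -0.82 for Dusp6, with the lowest adjusted p at 0.149 and 0.371.

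**Figure D2:**
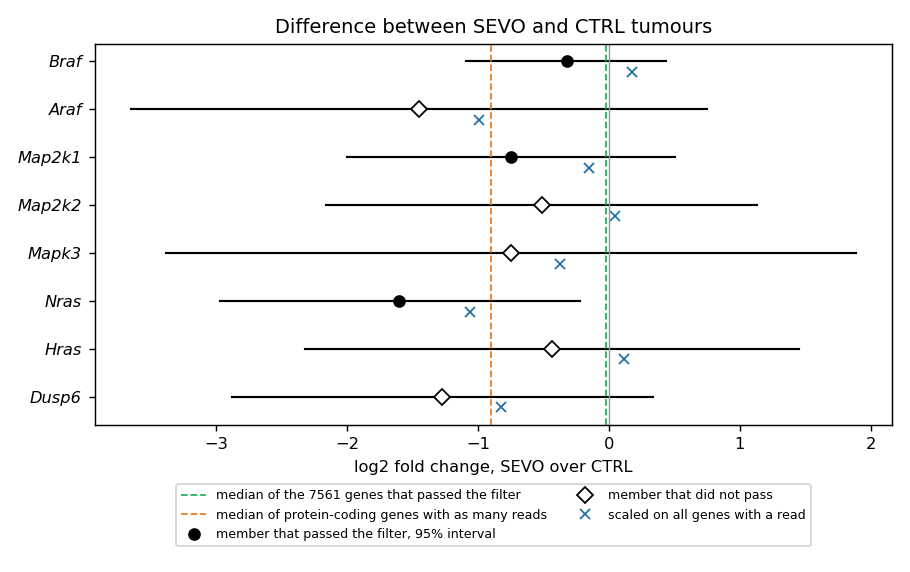
Log2 fold change of SEVO over CTRL (x axis) for each cascade gene, with the 95% interval. Filled circles are the 3 genes that passed the filter on low counts, open diamonds the other 5, and crosses the values with scaling on all genes with a read. The interval leaves out 0 for Nras alone, at -2.97 to -0.22, and the medians of all filtered genes (-0.02) and of protein-coding genes with as many reads (-0.90) are dashed lines.

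Per kilobase of exon, the levels in single tumours ran from 0 for Araf to 10 for Map2k1. In CTRL the order by RPKM, which is CPM divided by the kilobases of exon, was Map2k1 at 6.05 ± 3.44 (SD, n = 3), Dusp6 at 4.87 ± 0.149, Braf at 4.57 ± 1.08, Nras at 3.39 ± 1.21, Hras at 2.26 ± 1.42, Map2k2 at 2.04 ± 1.17, Mapk3 at 1.95 ± 1.23 and Araf at 1.26 ± 1.05. In SEVO, Braf at 3.65 ± 1.18 RPKM and Map2k1 at 3.59 ± 0.994 led, and Nras, at 1.1 ± 0.464, was followed only by Araf at 0.448 ± 0.629. Each gene overlapped in its range over the 3 tumours with the next in the order, in both groups, so neighbours did not differ beyond their spread. Within each pair of relatives the order of the means was the same in both groups for the kinases, Braf above Araf and Map2k1 above Map2k2. For the GTPases it was not, with Nras above Hras in CTRL and below it in SEVO, and this difference was not tested.

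To set these levels beside a background, the reads on 1460 olfactory and vomeronasal receptor genes, known for sensing odours and pheromones in the nose, were pooled. This set was chosen after the data were seen. It had 1.3 reads per kilobase of exon in CTRL 1, 0.0755 in CTRL 2, 0.588 in CTRL 3, 0.184 in SEVO 1, 0.21 in SEVO 2 and 0.396 in SEVO 3. CTRL 1, the tumour with the highest level for 6 of the 8 cascade genes, also had the highest density on these receptor genes. Braf, Map2k1, Map2k2, Nras, Hras and Dusp6 lay above this density in 6 of 6 tumours, Mapk3 in 5 and Araf in 3. In CTRL 1, Mapk3 had only 0.342 times the density of the receptor genes.

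Nras and Dusp6 remained without overlap when the receptor gene density was subtracted. Nras then averaged 13.9 ± 2.95 CPM in CTRL against 4.33 ± 1.82 CPM in SEVO (SD, n = 3), a log2 ratio of -1.68. Dusp6 averaged 12.8 ± 1.95 CPM in CTRL against 5.33 ± 2.72 CPM in SEVO, a log2 ratio of -1.27. For Braf the log2 ratio went from -0.33 to -0.18, for Map2k2 from -0.52 to -0.15 and for Hras from -0.44 to -0.11. For Map2k1 it went from -0.75 to -0.68, for Mapk3 from -0.78 to -0.47 and for Araf from -1.49 to -1.59. Per uniquely aligned read in place of counted reads, the log2 ratio was -1.75 for Nras and -1.40 for Dusp6.

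**Figure D3:**
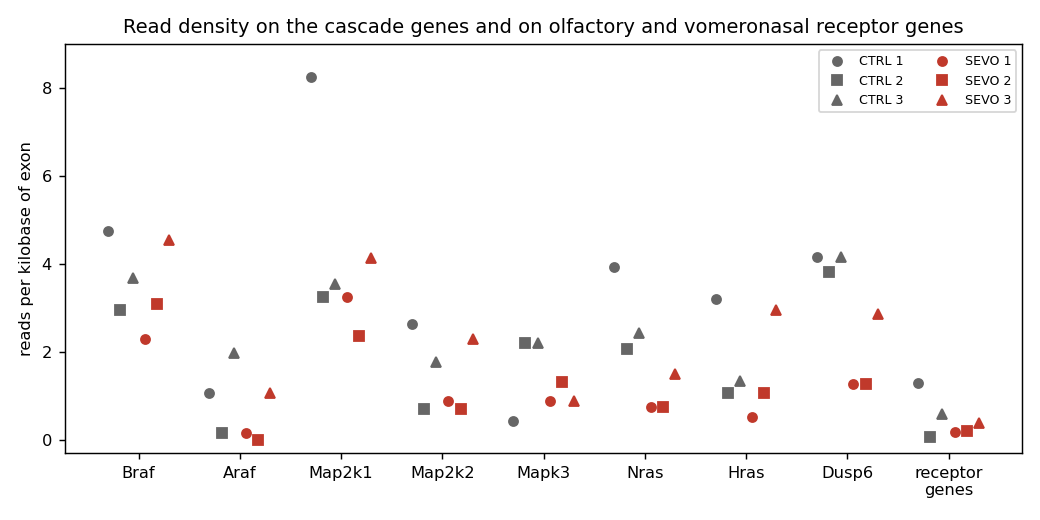
Reads per kilobase of exon (y axis) on each cascade gene and on 1460 pooled olfactory and vomeronasal receptor genes, 1 point per tumour. The receptor genes range from 0.0755 in CTRL 2 to 1.3 in CTRL 1. Braf and Map2k1 lie above 1.3 in every tumour, and each of the other 6 genes has at least 1 tumour within that range, mostly SEVO tumours, whose own receptor gene densities are lower than that of CTRL 1.

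For 3 of the 8 genes the annotation holds another gene in the same stretch of chromosome, and for 5 (Map2k2, Mapk3, Nras, Hras and Dusp6) it holds none. The strand setting of the counting is not given in the sources used here, so reads of a gene and of its partner on the opposite strand cannot be told apart with certainty. Braf meets Ndufb2, a gene of respiratory chain complex I, tail to tail at chr6:39603237-39603382. These 146 bases are 1.05% of the exon bases of Braf and hold no coding base of it. Ndufb2 had 59 to 88 reads per tumour, 3.48 times the reads of Braf per kilobase of exon, and a log2 fold change of -0.16. Araf meets Syn1, a gene of synaptic vesicles, in 9 bases at chrX:20860511-20860519, 0.138% of its exon bases. Syn1 had 18 to 41 reads per tumour, 12.4 times the density of Araf, and a log2 fold change of -0.07.

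Araf also spans 3 opposite-strand genes outside its exons, Gm26065, Gm24824 and Gm15028, with 1, 1 and 0 reads over the 6 tumours. The introns of Map2k1 hold 3 genes on the opposite strand, Gm24106, Gm48855 and Uchl4, none of which touches its exons. Genes inside introns were named after their values were seen. Gm48855, a long noncoding RNA gene, had 187, 284 and 216 reads in CTRL and 363, 263 and 233 in SEVO. Uchl4, annotated as protein-coding, had 89, 136 and 123 reads in CTRL and 193, 160 and 147 in SEVO. Both had far more reads than the Map2k1 exons, 25.4 and 29.5 times as many per kilobase of exon, and the short Gm24106 had 34.6 times as many. The log2 fold change was 0.20 for Gm48855, 0.40 for Uchl4 and -0.64 for Gm24106, with adjusted p-values of 0.846, 0.748 and 0.745 in edgeR. The values of Gm48855 and Uchl4 were positive where that of the Map2k1 exons was negative, and none of them passed the test.

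The mitochondrial genes show how the counts fall on the strands. mt-Nd6, the only mitochondrial protein gene annotated on the minus strand, had 6600 reads per kilobase over the 6 tumours, more than any of the 12 plus-strand protein genes. mt-Nd5 followed with 5410 and mt-Cytb with 3060, while mt-Co2, mt-Atp8, mt-Atp6, mt-Co3, mt-Nd3 and mt-Nd4l were at 0 in every tumour. The genes at 0 are annotated on the same strand as mt-Nd5 and mt-Cytb, and why they had no reads was not tested. Whether the counted strand was that of the RNA was not tested, so the levels of the cascade genes are read counts on their annotated exons and no more.

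**Figure D4:**
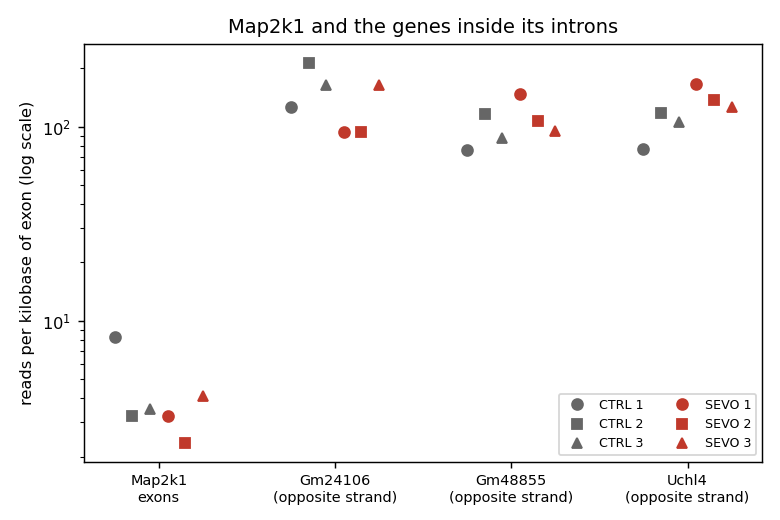
Reads per kilobase of exon (y axis, log scale) on the exons of Map2k1 and on 3 genes inside its introns on the opposite strand, 1 point per tumour. In all 6 tumours the 3 inner genes lie above the Map2k1 exons, by 25.4 to 34.6 times in the sum over tumours.

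The rest of the pathway was read from 7 lists of 179 genes by role, and 77 of these were tested after the filter on low counts. None differed at an adjusted p under 0.05 in edgeR. At an unadjusted p under 0.05, edgeR gave 5 of the 77 lower and 0 higher in SEVO, while DESeq2 gave 0 at both thresholds. The edgeR share in either direction was 4.36% of all filtered genes. It was 11.3% of protein-coding genes with as many reads as the cascade genes, in the fit on all genes with a read. Of the 77, 60 had a negative log2 fold change and 17 a positive one, beside 51.1% negative of all filtered genes and 88% of protein-coding genes with as many reads as the cascade genes, and for 6 the groups did not overlap, beside 8.56% of all filtered genes. The split moved with the scaling: 39 of the 77 were negative with the scaling computed on all genes with a read, 48 in DESeq2 and 50 with library size only. With the scaling on all genes with a read, 5 of the 7 lists had a positive median, all but that upstream of RAS and the PI3K arm.

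Upstream of RAS, among receptors, adaptors and exchange factors, 14 of 27 listed genes were tested. All 14 were negative, with a median log2 fold change of -0.91, but 11 of 14 (median -0.39) with the scaling on all genes with a read and 12 of 14 (median -0.42) without CTRL 1. Protein-coding genes with as many reads as the cascade genes had a median of -0.90, with 88% negative, which is near the values of the list. That set was matched to the reads of the cascade genes and not of the list, and it includes genes under the filter. An unadjusted p under 0.05 in edgeR was found for 2 of the 14, beside 4.36% of all filtered genes and 11.3% of protein-coding genes with as many reads as the cascade genes. Igf1r, the receptor of insulin-like growth factor, averaged 34.4 ± 30.8 CPM in CTRL against 8.13 ± 7.1 CPM in SEVO (SD, n = 3), with CTRL 1 holding 56 of its reads. Rasgrp3, an exchange factor that loads RAS with GTP, had 23, 11 and 20 reads in CTRL and 6, 4 and 11 in SEVO, a log2 fold change of -1.46 (SE 0.61, adjusted p = 0.741 in edgeR). Its CPM did not overlap between the groups. Met, the receptor of hepatocyte growth factor, was the most abundant of these 4 by CPM, at 215 ± 64.5 in CTRL and 115 ± 86 in SEVO. Ptpn11, the phosphatase that relays receptor signals to RAS, averaged 23.9 ± 12.4 CPM in CTRL against 11 ± 9.39 CPM in SEVO.

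Among the GTPase activating proteins and further RAS family members, 10 of 22 were tested, 3 positive and 7 negative, with a median of -0.32. Nf1, which switches RAS off, had 61, 14 and 48 reads in CTRL and 8, 5 and 36 in SEVO, with a log2 fold change of -1.44 (SE 0.67, adjusted p = 0.741 in edgeR). Its groups overlapped through SEVO 3. Rasa3, of the same function, had a log2 fold change of -1.09. Among the scaffolds and regulators of RAF and MEK, 15 of 30 were tested, 4 positive and 11 negative, with a median of -0.38. Ywhag, a 14-3-3 protein that binds RAF, had 22, 17 and 19 reads in CTRL and 3, 4 and 18 in SEVO, and its CPM did not overlap. Iqgap1, a scaffold of MEK and ERK, averaged 68.7 ± 41 CPM in CTRL against 32.8 ± 31.3 CPM in SEVO.

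On the list of feedback inhibitors, the group to which Dusp6 belongs by function, 5 of 20 were tested. Of these, 2 were positive (Dusp2 and Rasd1) and 3 negative, with a median of -0.29. Spred1, which brings neurofibromin to RAS, averaged 16.7 ± 6.07 CPM in CTRL against 7.32 ± 4.07 CPM in SEVO (SD, n = 3). Rasd1, a RAS-related GTPase, was on this list but is neither a phosphatase nor a relative of Spred1. It had 3, 10 and 11 reads in CTRL and 18, 15 and 14 in SEVO, without overlap. Its log2 fold change of 0.84 (SE 0.62, adjusted p = 0.741 in edgeR) was opposite in direction to that of Dusp6. Dusp2 and Dusp16, phosphatases of the same family as Dusp6, had log2 fold changes of 0.27 and -0.34.

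Downstream of ERK, 10 of 34 listed genes were tested, 3 positive and 7 negative, with a median of -0.38. Ets1, a transcription factor phosphorylated by ERK, averaged 70.9 ± 24.7 CPM in CTRL against 35.9 ± 14.4 CPM in SEVO (SD, n = 3), a log2 fold change of -0.98 (SE 0.40, adjusted p = 0.741 in edgeR). Mknk2, a kinase activated by ERK, did not overlap between the groups, at 20.4 ± 6.46 CPM and 10.7 ± 1.84 CPM. The list of the JNK and p38 modules also held further MAP kinase genes, Mapk6 among them. From it, 8 of 27 were tested, 2 positive and 6 negative, with a median of -0.33. The lowest unadjusted p in edgeR was 0.2, for Mapk6 (log2 fold change -1.05). In the PI3K arm 15 of 19 were tested, 3 positive and 12 negative, with a median of -0.81. Pik3cd, a catalytic subunit of PI3K, did not overlap, at 15.6 ± 2.64 CPM and 8.06 ± 2.62 CPM.

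**Figure D5:**
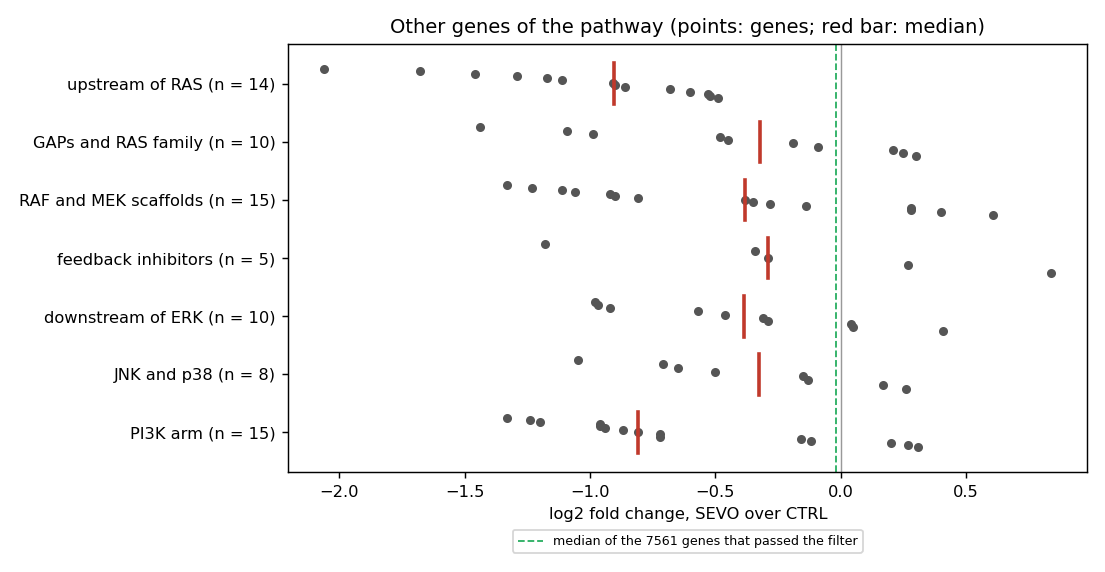
Log2 fold change of SEVO over CTRL (x axis) for the 77 tested genes of the 7 pathway lists, 1 point per gene, with the median of each list as a red bar. All 14 genes upstream of RAS lie below 0 in this scaling (11 with scaling on all genes with a read), each other list has genes on both sides, and the dashed line is the median of the 7561 filtered genes at -0.02.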

How the data were processed

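RNA-seq libraries from pieces of 3 CTRL and 3 SEVO tumours were used, grouped by their labels. The files deposited hold raw counts of reads for each gene, 1 column per tumour, followed by 5 tallies of reads that were not counted, which were left out of library sizes and tests. The authors checked reads with FastQC, removed ribosomal RNA with SortMeRNA, trimmed with Trimmomatic 0.36, aligned with STAR 2.6.0c to GRCm38.p6 with GENCODE M17, sorted with SAMtools 1.8.3 and counted unique reads with HTSeq 0.9.1, as the study's methods and the submitters' processing notes state. The strand setting and the library kit are not given in the sources used here. Reads that lie on no feature do not enter the counts, and whether reads over genes of both strands do depends on the strand setting. Symbols, positions and exon lengths came from GENCODE M21 on the same build, matched for 53706 of 53801 identifiers.

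SEVO was compared with CTRL by the quasi-likelihood test of edgeR 4.0.16 (R 4.3.3) with TMM scaling and filterByExpr (7561 genes), adjusted by Benjamini-Hochberg. DESeq2 1.42.0, the tool of the study, was the alternative. The common dispersion was estimated at 0.158 (biological coefficient of variation 0.398). Standard errors were derived from the F statistic, and 95% intervals from the t distribution with its degrees of freedom. The 5 cascade genes under the filter were fitted among all 42423 genes with at least 1 read, with the effective library sizes of the filtered fit. Scaling recomputed on all those genes had been run first, and this choice was made after its values were seen. Both are given. Genes of like depth are the protein-coding genes with 18 to 296 reads over the 6 tumours, the range of the cascade genes.

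The cascade genes and the pathway and marker lists were chosen with earlier results of these data known. From each pathway list, the 4 tested genes with the lowest unadjusted p could be named, whatever their direction, beside genes whose exons overlap a cascade gene and the mitochondrial protein genes. The values of 1 gene chosen by this rule and 1 pair of sequences are not reported here. Nothing says beyond separate samples that tumours of a group came from separate cultures, so p-values measure the spread between these samples. Tumours of the same group differed by a chi-squared value per gene of 4.35 to 51.6, beyond sampling noise. The intervals of the fold changes come from the edgeR fit, and they include the estimated spread between tumours as well as counting error.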

Additional observations from a re-analysis of the deposited data

How the results depend on the processing

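The counting error at the median of 8.5 reads per cascade gene and tumour was 34.3%, beside a biological coefficient of variation of 0.398, and both limit which differences could be detected. Over the alternatives (scaling, filter, tool, replicate block and each tumour left out), 0 of the 8 cascade genes met an adjusted p under 0.05 or the thresholds of the study (unadjusted p under 0.02 and 1.5-fold). The median log2 fold change of the 8 stayed negative, from -1.20 without SEVO 3 to -0.26 with no filter. The count of cascade genes at an unadjusted p under 0.05 was 1 and became 0 with no filter, with library size only, in DESeq2 and with the replicate block, and 0 to 2 when a tumour was left out. The count without overlap was 2, became 1 with no filter, and 2 to 6 when a tumour was left out (6 without SEVO 3). No share of all genes was computed beside the counts with a tumour left out. The value for Braf turned to 0.18 with no filter and 0.02 in DESeq2, that for Map2k2 to 0.05 with no filter, and that for Hras to 0.12 with no filter, 0.20 without CTRL 1 and 0.04 without SEVO 1, with a range of -1.26 to 0.20 when a tumour was left out. The cause was not tested.

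Among all tested genes, the count at an adjusted p under 0.05 was 0, 1 with the replicate block and 0 to 31 when a tumour was left out (31 without CTRL 2). The count at the thresholds of the study was 79 (8 higher, 71 lower in SEVO), 266 with no filter (100 higher, 166 lower), 49 in DESeq2 (26 and 23), 129 with the replicate block (6 and 123), 60 with library size only (24 and 36), and 13 to 1449 when a tumour was left out (1449 without CTRL 2, 13 without SEVO 1). Library size only moved the median of all tested genes to 0.22, uniquely aligned reads as library size to -0.18 and no filter to -0.38. Relative to that median, the 8 genes lay at -0.71, -0.72 and 0.12, beside -0.73 in the fit reported. The value of 0.12 is relative to 42423 genes and the others to the 7561 filtered genes, so they are not alike. Only 3 of the 8 cascade genes passed that filter. Protein-coding genes of like depth had a median of -0.90 in the fit reported, beside -0.75 for the 8. The replicate numbers of the labels did not pair the tumours: the correlations of their deviations were -0.389, 0.322 and 0.109, and no source says that a number is shared.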
